A study of Mus musculus with 6 samples.

Results

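The 10 genes described here mark the macrophages that live in healthy adipose tissue, and they were followed through inguinal white adipose tissue (IngWAT) of mice that overexpress Slc35d3 in adipocytes. They are Adgre1, Csf1r, Lyz2, Mrc1, Cd163, Folr2, Retnla, Clec10a, Cbr2 and F13a1. They were taken by gene name from the deposited counts, which list 34745 genes, and all 10 were among the 15400 genes with enough reads to be tested. Poly(A) RNA of IngWAT was sequenced from 3 wild-type (WT) and 3 adipose-specific Slc35d3 knock-in (SAKI) male mice. SAKI mice carry an LSL-Slc35d3 transgene that is switched on by Cre under the adiponectin promoter, which is active in adipocytes and not in macrophages. By the study's methods, the WT controls carry the same LSL-Slc35d3 allele without Cre. All mice were on a C57BL/6 background, were perfused with PBS, and were fed chow with 10% of its energy as fat. The feeding began at an age of 6 weeks, lasted 10 weeks and ended at 16 weeks.

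Fat depots hold macrophages that settle along vessels and between adipocytes, clear dead cells, haemoglobin and debris, and are kept alive by signals through the CSF1 receptor. In lean fat many of them carry scavenger and lectin receptors on their surface and express genes that interleukin 4 and interleukin 13 induce through STAT6. They are told apart from monocytes, which arrive from blood, and from lipid-associated macrophages, which gather around dying adipocytes in obesity.

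The promoters of the members were searched for letters that macrophage transcription factors are known to bind, and 4 are printed because their genes had the widest and the narrowest swings between libraries. Retnla and Cd163 varied most and Lyz2 and Mrc1 least. The windows are from RefSeq on GRCm38.p6, read 5′ to 3′ on the gene's strand, cover up to 250 bases before a transcription start and leave out bases inside annotated exons. They are chr16:48842359-48842550 on the plus strand for Retnla, chr6:124304429-124304650 on the plus strand for Cd163, chr10:117282322-117282522 on the minus strand for Lyz2 and chr2:14229164-14229391 on the plus strand for Mrc1. Capitals mark a match on either strand to GAGGAA, a core bound by the myeloid factor PU.1, to TTC and GAA with 4 bases between them, bound by STAT6, to TTGCNNAA, bound by C/EBP factors, or to TGCTGA, the core of the site of MAF factors.
Retnla: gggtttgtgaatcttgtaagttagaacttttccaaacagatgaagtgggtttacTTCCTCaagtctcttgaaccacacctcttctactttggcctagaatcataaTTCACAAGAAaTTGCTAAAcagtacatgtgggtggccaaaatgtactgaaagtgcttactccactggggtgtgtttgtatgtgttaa
Cd163: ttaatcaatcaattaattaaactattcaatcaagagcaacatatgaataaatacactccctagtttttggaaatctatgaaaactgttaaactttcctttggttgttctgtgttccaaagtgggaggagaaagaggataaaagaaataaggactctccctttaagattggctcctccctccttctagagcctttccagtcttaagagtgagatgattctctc
Lyz2: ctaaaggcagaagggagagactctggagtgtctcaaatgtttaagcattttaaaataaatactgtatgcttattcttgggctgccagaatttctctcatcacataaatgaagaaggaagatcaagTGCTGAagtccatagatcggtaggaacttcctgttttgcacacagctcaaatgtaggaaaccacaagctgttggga
Mrc1: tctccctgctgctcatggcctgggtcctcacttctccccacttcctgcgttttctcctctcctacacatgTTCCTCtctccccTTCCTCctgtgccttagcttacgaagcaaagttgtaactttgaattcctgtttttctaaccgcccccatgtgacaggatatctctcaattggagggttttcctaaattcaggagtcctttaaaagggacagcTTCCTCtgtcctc

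Retnla held the STAT6 letters TTCACAAGAA 145 bases before its start and, 1 base further on, the C/EBP letters TTGCTAAA at 134 bases, with a PU.1 match upstream at 196 bases. Mrc1 held 3 PU.1 matches, Lyz2 held 1 MAF core and Cd163 had none of the 4 motifs in its window. Windows were matched for 7 of the 10 members, 9 windows in all since Folr2 and F13a1 each have a pair of starts. Adgre1, Csf1r and Clec10a were not matched. The PU.1 letters stood in 3 of the 9 windows, the STAT6 letters in 1, the C/EBP letters in 1 and the MAF core in 3. Among 32851 promoter windows of 250 bases, 23.3% held the PU.1 letters, 5.85% the STAT6 letters, 9.56% the C/EBP letters and 16.1% the MAF core. The windows of the members were 157 to 250 bases long once exons were left out, so these shares may not be for equal lengths. These matches describe the printed letters and were not tested for binding.

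The libraries held 15354161 to 18787036 counts. Slc35d3 itself was at 73.3 to 82.1 CPM, counts scaled to library size so that libraries can be compared, in WT and at 745 to 793 CPM in SAKI libraries, with no library in the wrong range for its label. Adipoq, the adipocyte gene for adiponectin, was at 1168 to 2006 CPM in all 6. The library of mouse WT 2 stood apart from WT 1 and WT 3. On the first principal component, which took 47.9% of the variance, it had a score of 24.4, against -40.6 and -58.1 for the other two WT libraries and 21.0 to 27.8 for SAKI libraries. Mitochondrial genes took 13.8% of its counts, against 7.31% and 8.78% in WT 1 and WT 3 and 13.1% to 15.9% in SAKI libraries. The comparison of the members is therefore given with all 6 libraries and again without WT 2.

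All 10 members had a higher mean in SAKI than in WT IngWAT, by 1.35-fold for Mrc1 to 2.65-fold for Cd163, and no member passed the test over all genes. The log2 fold changes of the edgeR fit ran from 0.44 to 1.40 with a median of 0.79, beside a median of -0.004 over all genes tested. Adjusted p-values of edgeR's quasi-likelihood test (Benjamini-Hochberg) lay between 0.192 and 0.745. At an unadjusted p under 0.05, 2 of the 10 members were higher, where 8.36% of all genes were, and at an adjusted p under 0.05 the background was 0.0195%. In 3 members, Adgre1, Csf1r and Lyz2, all SAKI libraries lay above all WT libraries, against 13.0% of all genes. Without WT 2, all 10 members passed the test and were higher in SAKI, where 7.41% of all genes were, with log2 fold changes of 0.76 to 2.79 and a median of 1.58. WT 2 was set apart on these same data and was the highest WT library for all 10 members. Leaving it out therefore had to widen their gap, so the p-values without WT 2 are not separate support for a difference. Leaving out WT 1 or WT 3 instead lowered all 10 fold changes, to a median of 0.63 or 0.49. All stayed higher in SAKI, and no member passed. DESeq2 on all 6 libraries called 1 member, Lyz2, with a background of 2.13% higher, and edgeR with the mean of B cell genes as a covariate called 6, with a background of 2.64%. That mean was lowest in WT 2, at 5.47 log2 CPM against 6.04 to 6.32 in the other libraries. Fold changes with this covariate were close to those without WT 2, so it is not a separate check. In whole tissue, more macrophages and more of these RNAs in each macrophage cannot be told apart.

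**Figure D1:**
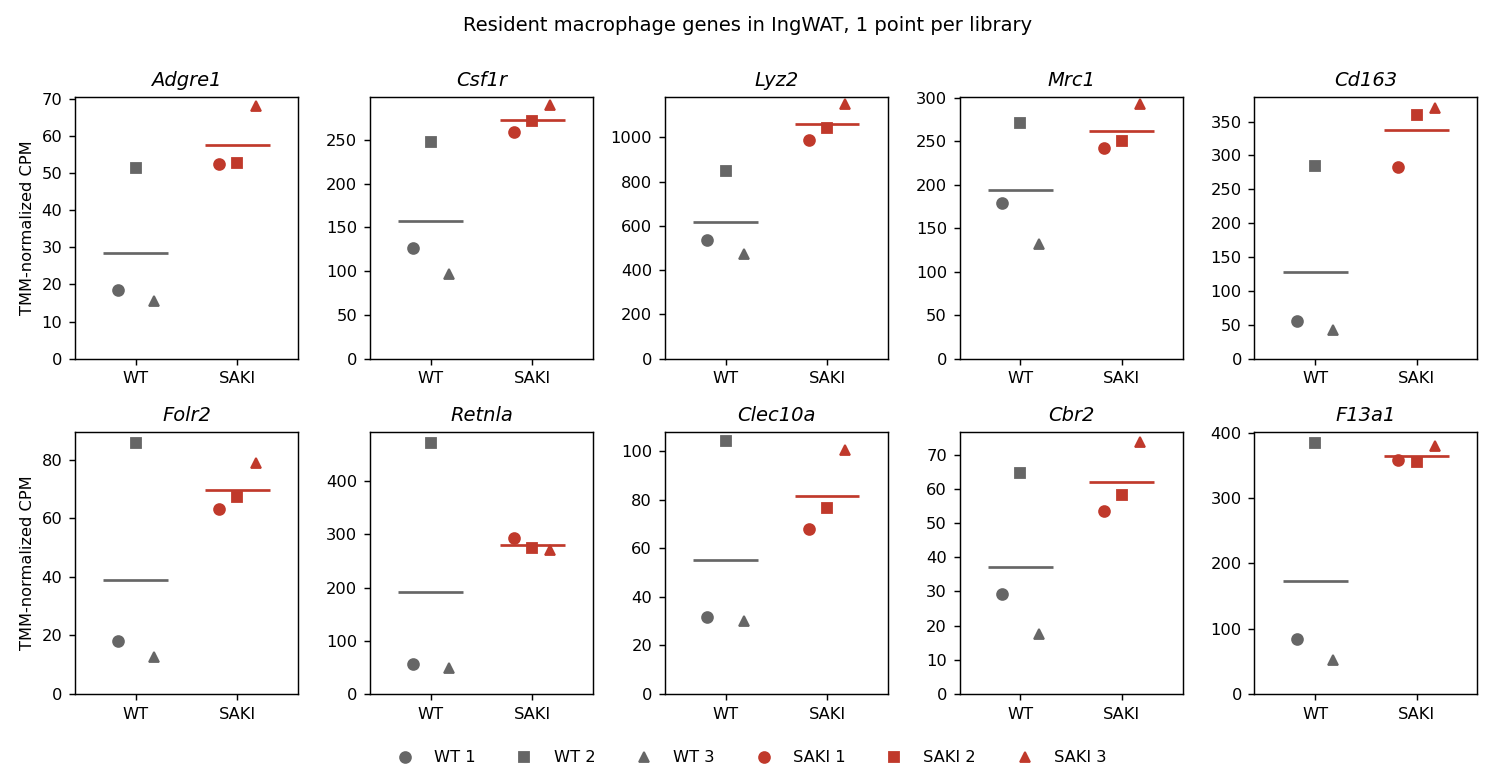
CPM (y axis, TMM-normalized, from 0, with its own scale in each panel) of the 10 members in the 3 WT libraries (grey) and the 3 SAKI libraries (red). Each point is 1 library, its shape gives the number of the mouse in its group, and lines are group means. In all panels WT 2 (grey square) sits above WT 1 and WT 3, and for Folr2, Retnla, Clec10a and F13a1 also above all SAKI libraries.

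Adgre1, Csf1r and Lyz2 are the members used to recognise macrophages as such. Adgre1 encodes F4/80, the surface protein by which mouse macrophages are usually stained, and lies at chr17:57358686-57483529. It was at 18.6, 51.5 and 15.6 CPM in WT 1, WT 2 and WT 3 and at 52.5, 52.8 and 68.1 CPM in SAKI 1, SAKI 2 and SAKI 3. WT 2 came within 1 CPM of the lowest SAKI library, while the other two WT libraries were far below. The log2 fold change was 1.02 ± 0.44 (SE, edgeR, n = 3 per group) with an adjusted p of 0.277, and 1.76 ± 0.17 with an adjusted p of 0.00398 without WT 2. Without WT 1 it was 0.78, and 0.72 without WT 3.

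Csf1r encodes the receptor for CSF1 and IL34, on which most tissue macrophages depend, and lies on chromosome 18. Its level was 127, 248 and 97.2 CPM in WT and 258, 271 and 290 CPM in SAKI libraries. The WT library nearest to the SAKI range was again WT 2. Its log2 fold change was 0.80 ± 0.33 (SE) with an edgeR adjusted p of 0.264, and 1.29 ± 0.14 with 0.00566 without WT 2. Without WT 1 it was 0.66, and 0.55 without WT 3. The exons of Csf1r overlap those of Hmgxb3 on the opposite strand, which had 522 to 761 counts a library against 1484 to 5605 for Csf1r, and the strand setting of the counting is not given in the sources used here.

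Lyz2 encodes lysozyme M, a bactericidal enzyme of macrophages and neutrophils, at chr10:117277334-117282274 on the minus strand. It was the most abundant member in CPM, at 535, 849 and 470 CPM in WT and 986, 1044 and 1150 CPM in SAKI libraries. No WT library reached the SAKI range, and Lyz2 had the smallest p of the members. Its log2 fold change was 0.78 ± 0.23 (SE) with an edgeR p of 0.0120 and an adjusted p of 0.192, and the DESeq2 adjusted p was 0.0397. The log2 fold change was 1.08 without WT 2 (edgeR adjusted p 0.00666), 0.68 without WT 1 and 0.61 without WT 3. The close relative Lyz1, whose reads could be exchanged with those of Lyz2, was at 39.4 to 54.9 CPM in WT and 53.8 to 69.4 CPM in SAKI libraries. In an exact permutation test on log2 CPM, two-sided, Adgre1, Csf1r and Lyz2 each had p = 0.1, the smallest that 3 against 3 libraries can give, and the other 7 members had p = 0.2 to 0.4.

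Mrc1, Cd163 and Folr2 encode receptors for uptake. Mrc1 encodes the mannose receptor CD206, a standard marker of alternatively activated macrophages, at chr2:14229392-14332057. It was at 178, 271 and 131 CPM in WT and 242, 251 and 293 CPM in SAKI libraries. Mrc1 had the smallest swing of the members, and WT 2 lay inside its SAKI range. The log2 fold change was 0.44 ± 0.26 (SE, edgeR adjusted p 0.392), and 0.76 ± 0.16 with an adjusted p of 0.0295 without WT 2. It was 0.38 without WT 1 and fell to 0.22 without WT 3.

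Cd163 encodes the scavenger receptor for haemoglobin bound to haptoglobin, at chr6:124304656-124330527. It was at 55.7, 284 and 42.4 CPM in WT and 283, 359 and 370 CPM in SAKI libraries. WT 2 was level with SAKI 1 and 5.10-fold above WT 1, the higher of the other two WT libraries. Cd163 had the largest fold change of the members in both fits, 1.40 ± 0.69 on the log2 scale (SE, edgeR adjusted p 0.322) and 2.79 ± 0.19 (adjusted p 0.00198) without WT 2. The value was 1.05 without WT 1 and 0.99 without WT 3.

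Folr2 encodes folate receptor beta, found on resident macrophages of many tissues, at chr7:101839990-101845331 on the minus strand. It was at 18.2, 85.9 and 12.8 CPM in WT and 63.2, 67.3 and 79.0 CPM in SAKI libraries. The highest Folr2 level of all 6 libraries was in WT 2. Its log2 fold change was 0.84 ± 0.66 (SE, edgeR adjusted p 0.514), and 2.18 ± 0.19 (adjusted p 0.00323) without WT 2. It was 0.50 without WT 1 and 0.43 without WT 3.

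Retnla and Clec10a are induced in macrophages by interleukin 4. Retnla encodes the secreted protein RELMα, also called FIZZ1, at chr16:48842552-48844461, and its promoter is the one printed above with the STAT6 and C/EBP letters side by side. It was at 57.1, 471 and 48.7 CPM in WT and 293, 275 and 270 CPM in SAKI libraries. The 3 SAKI libraries lay close together, and WT 2 was 8.26-fold above WT 1, the widest such gap of the members. With all libraries the log2 fold change of Retnla was 0.54 ± 0.82 (SE, edgeR adjusted p 0.745), the largest error of the members, and without WT 2 it was 2.41 ± 0.12 (adjusted p 0.00109). Without WT 1 or WT 3 it was close to 0, at 0.10 and 0.081 (adjusted p 0.958 and 0.973).

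Clec10a encodes the galactose-type lectin MGL1, at chr11:70156197-70170834. It was at 31.8, 104 and 30.1 CPM in WT and 68.1, 76.4 and 100 CPM in SAKI libraries. WT 2 was above all SAKI libraries. The log2 fold change was 0.56 ± 0.48 (SE, edgeR adjusted p 0.550), and 1.40 ± 0.18 (adjusted p 0.00851) without WT 2. It was 0.28 without WT 1 and 0.26 without WT 3. Its close relative Mgl2, with which reads could be exchanged, was at 24.9 to 87.0 CPM in WT and 66.8 to 81.7 CPM in SAKI libraries.

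Cbr2 and F13a1 encode enzymes that mark resident macrophages. Cbr2 encodes a carbonyl reductase, at chr11:120729489-120732114 on the minus strand. It was at 29.3, 64.6 and 17.5 CPM in WT and 53.6, 58.3 and 73.8 CPM in SAKI libraries. WT 2 lay inside the SAKI range. The log2 fold change was 0.74 ± 0.43 (SE, edgeR adjusted p 0.396), and 1.41 ± 0.25 (adjusted p 0.0184) without WT 2. It was 0.59 without WT 1 and 0.40 without WT 3.

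F13a1 encodes the A subunit of coagulation factor XIII, a transglutaminase that links fibrin chains, at chr13:36867178-37050244 on the minus strand. It was at 84.7, 385 and 52.0 CPM in WT and 358, 356 and 381 CPM in SAKI libraries. WT 2 was just above the SAKI libraries, which were nearly level with each other. The log2 fold change was 1.07 ± 0.68 (SE, edgeR adjusted p 0.428), and 2.42 ± 0.22 (adjusted p 0.00344) without WT 2. The value was 0.74 without WT 1 and 0.64 without WT 3.

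**Figure D2:**
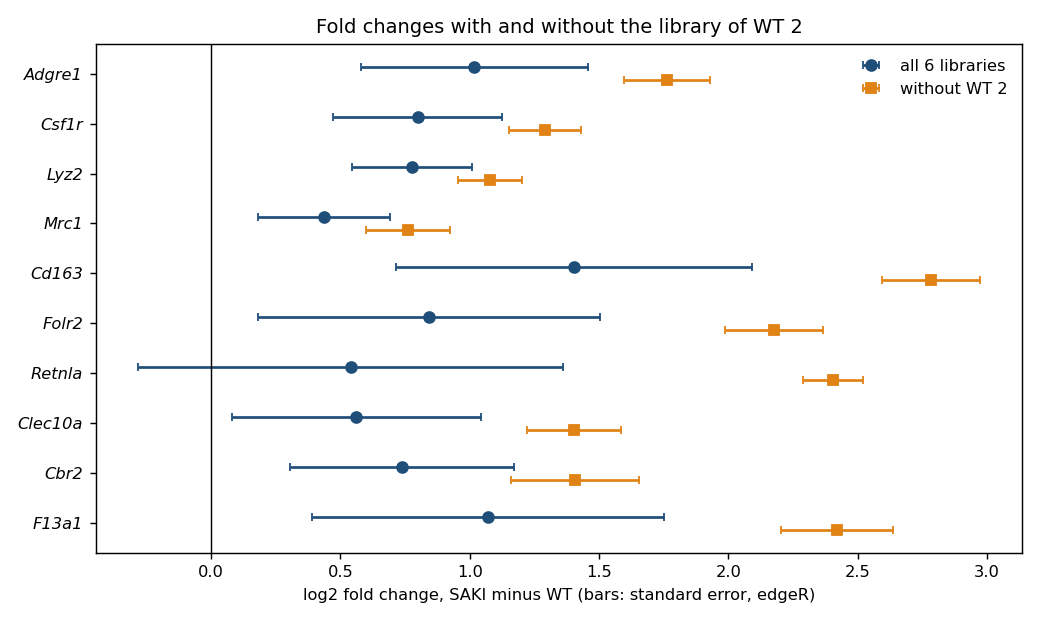
Log2 fold change of each member, SAKI minus WT, from edgeR with all 6 libraries (blue circles) and without WT 2 (orange squares), with bars of 1 standard error. All 10 values lie above 0 in both fits, from 0.44 to 1.40 with all libraries and from 0.76 to 2.79 without WT 2, where the bars are shorter.

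The members had like profiles over the 6 libraries. WT 2 was above both other WT libraries in all 10 members, which held for 34.3% of all genes, and at least 2-fold above both in 7, which held for 3.94%. The remaining 3 were Csf1r, Lyz2 and Mrc1, at 1.96-fold, 1.59-fold and 1.52-fold. WT 1 was above WT 3 in all 10, and SAKI 3 was the highest library for 6. WT 2 lay below the SAKI range for Adgre1, Csf1r and Lyz2, within it for Mrc1, Cd163 and Cbr2, and above it for Folr2, Retnla, Clec10a and F13a1. The distance between a member's highest and lowest library ran from 1.16 on the log2 scale for Mrc1 to 3.27 for Retnla and 3.12 for Cd163.

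Levels are compared between genes per length, as FPKM (fragment counts scaled to gene length and library size). In SAKI libraries Lyz2 was highest, at 844 ± 85.0 FPKM (SD, n = 3), followed by Retnla at 471 ± 10.5, F13a1 at 93.6 ± 5.42 and Folr2 at 65.3 ± 9.16. Cd163 at 49.0 ± 7.85 FPKM and Csf1r at 47.0 ± 3.76 came next and changed places between libraries. Mrc1 at 35.5 ± 4.48 FPKM was above Cbr2 at 32.2 ± 6.20, and Adgre1 at 16.2 ± 2.84 above Clec10a at 14.2 ± 3.24, in each of the 3 SAKI libraries, though the ranges of each pair over the libraries overlapped. The order was not the same in every WT library. In WT 2, Retnla at 766 FPKM was above Lyz2 at 651 FPKM, while in WT 1 and WT 3 Lyz2 at 443 and 355 FPKM was above Retnla at 100 and 77.8 FPKM. Mrc1 came right after these in WT 1 and WT 3, at 25.1 and 16.9 FPKM, followed by Csf1r at 22.6 and 15.8 FPKM and F13a1 at 22.6 and 12.7 FPKM, whereas F13a1 was at 95.2 FPKM and Mrc1 at 35.3 FPKM in WT 2.

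The next question was whether the members moved apart from other macrophage genes. A list of 22 general macrophage and myeloid genes, such as those of the C1q complement subunits and Cd68, had a mean of 5.60, 5.90 and 5.34 log2 CPM in WT 1, WT 2 and WT 3 and of 5.98, 6.04 and 6.27 in SAKI libraries. WT 2 was above both other WT libraries in 14 of the 22. Ptprc, at 321, 197 and 341 CPM in WT, and Laptm5, at 217, 172 and 185 CPM, went the other way (both chosen after their values were seen). The part of other white blood cells in this list's mean was not tested. The members had a mean of 5.99, 7.62 and 5.60 log2 CPM in WT and 7.43, 7.51 and 7.70 in SAKI libraries, a wider swing in the same order among WT libraries. Measured against that list within each library, Cd163 was higher in SAKI by 1.45 on the log2 scale, F13a1 by 1.13, Folr2 and Retnla by 0.87 each, Adgre1 by 0.73, Cbr2 by 0.45, Csf1r by 0.43, Lyz2 by 0.34, Clec10a by 0.31 and Mrc1 by 0.01. Lyz2 was the only one whose groups did not overlap on this measure (exact permutation test, two-sided, p = 0.1, the smallest possible), and the others had p of 0.2 to 1 in the same exact test. The value for Mrc1 was 1.88, 2.18 and 1.70 in WT and 1.94, 1.93 and 1.93 in SAKI libraries and hardly differed among SAKI libraries. Without WT 2 in the comparison, the values were higher in SAKI by 0.14 for Mrc1 to 2.15 for Cd163. With the mean of the list as a covariate in edgeR, 9 of the 10 fold changes were below 0, with a median of -0.36 and adjusted p-values of 0.970 to 0.999. The mean of the list was itself higher in every SAKI library than in every WT library. This fit therefore cannot tell the list from the genotype, and no direction is read from it.

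**Figure D3:**
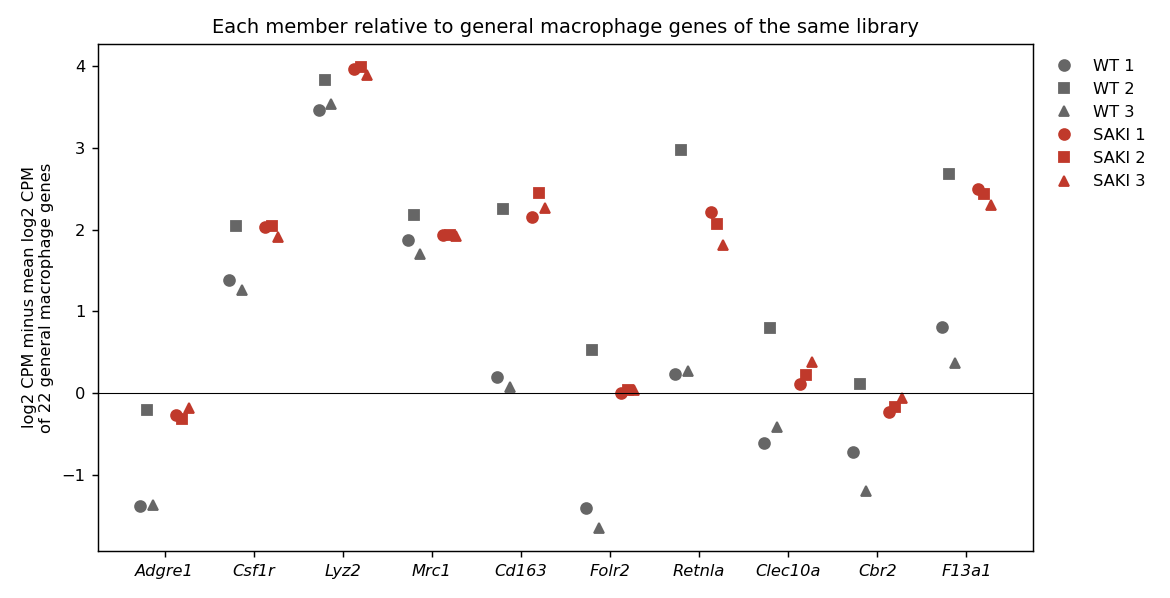
Log2 CPM of each member minus the mean log2 CPM of 22 general macrophage genes in the same library (y axis), for WT libraries (grey) and SAKI libraries (red), with the shape giving the mouse number. For all 10 members WT 2 lies above WT 1 and WT 3, most widely for Retnla, and only for Lyz2 do the groups not overlap.

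Among the 22 general genes, 19 had a log2 fold change above 0, with a median of 0.59, and 8 were higher and 0 lower at an unadjusted p under 0.05. None passed the test over all genes with edgeR, and 11 were higher and 0 lower without WT 2. Those of smallest p were Cybb, a subunit of the phagocyte oxidase, at 57.5 ± 5.98 CPM in WT and 94.6 ± 1.27 CPM in SAKI (SD, n = 3, edgeR adjusted p 0.148), Mpeg1, which encodes the pore-forming perforin-2, at 146 ± 15.6 and 231 ± 18.5 CPM (0.148), and Ctss, the lysosomal protease cathepsin S, at 137 ± 17.7 and 217 ± 22.4 CPM (0.155). In these 3 genes the WT libraries lay close together, unlike in the members. Other macrophage genes had nearly the same mean in both groups. Mertk, a receptor for dying cells, was at 68.5 ± 11.6 CPM in WT and 63.6 ± 12.3 CPM in SAKI, and Fcgr1, the high-affinity IgG receptor, at 9.60 ± 1.43 and 9.38 ± 3.36 CPM. Mertk and Fcgr1 were picked after their values were seen.

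Perivascular macrophages, which line vessels and take up solutes from blood, express several members together with Lyve1, Timd4 and lectins of the Cd209 family. Of 16 further genes of these cells, 11 had a log2 fold change above 0 and 5 below, with a median of 0.39. At an unadjusted p under 0.05, 3 were higher and 2 lower, none passed the adjusted test with edgeR, and 9 were higher and 1 lower without WT 2. Lyve1, the hyaluronan receptor, went from 48.4, 181 and 44.6 CPM in WT to 157, 170 and 170 CPM in SAKI libraries, the profile of the members. Timd4, a receptor for phosphatidylserine on dying cells, was at 39.1 ± 6.46 CPM in WT and 68.0 ± 9.13 CPM in SAKI (SD, n = 3, edgeR adjusted p 0.151), and Cd209b at 56.9 ± 23.2 and 95.4 ± 5.43 CPM (0.230). Ltc4s, the enzyme that makes leukotriene C4, was at 34.6 ± 9.71 CPM in WT and 23.2 ± 3.84 CPM in SAKI (0.256). WT 2 was at least 2-fold above both other WT libraries in 7 of the 16, with Fcna, the ficolin gene, at 8.10, 63.5 and 5.17 CPM in WT and 48.8, 43.8 and 52.2 CPM in SAKI libraries as an example (chosen after its values were seen).

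Since Retnla and Clec10a answer to interleukin 4, other genes of that response were read beside them. Of 15 genes, 14 were tested, 9 had a log2 fold change above 0 and 5 below, and the median was 0.27. At an unadjusted p under 0.05, 2 were higher and 1 lower, and without WT 2, 3 were higher and 2 lower in the adjusted edgeR test. Ccl22, a chemokine of alternatively activated macrophages and dendritic cells, was at 27.3 ± 7.46 CPM in WT and 40.9 ± 5.21 CPM in SAKI (SD, n = 3, adjusted p 0.228). The receptor chain Il13ra1 was at 29.0 ± 2.96 and 35.1 ± 1.18 CPM (0.270), and Tgm2, tissue transglutaminase, at 384 ± 39.8 and 278 ± 13.6 CPM (0.174). Il4 and Il13 themselves had too few reads to be tested, with at most 0.258 CPM in any library. Among 6 genes on the source of these cytokines 3 were tested. Il33 was at 26.9 ± 14.95 CPM in WT and 15.1 ± 4.20 CPM in SAKI (0.371), its receptor Il1rl1 at 30.1 ± 15.3 and 15.9 ± 2.53 CPM (0.260), and the lymphoid factor Gata3 at 4.42 ± 1.19 and 5.89 ± 0.95 CPM (0.423). Without WT 2 the log2 fold changes were -1.22 for Il33 and -1.23 for Il1rl1 (edgeR adjusted p 0.0211 and 0.0192). That of Gata3 was 0.27 (0.484).

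Genes of the CSF1 receptor's ligands were read beside Csf1r. Csf1 was at 55.2, 93.4 and 82.2 CPM in WT and 74.0, 67.3 and 61.2 CPM in SAKI libraries, with WT 1 below all SAKI libraries, and its log2 fold change was -0.19 (edgeR adjusted p 0.629), or -0.02 without WT 2. Il34 was at 20.8 ± 6.31 CPM in WT and 11.3 ± 1.08 CPM in SAKI (SD, n = 3), a log2 fold change of -0.87 ± 0.24 (SE) with an edgeR adjusted p of 0.181. Without WT 2 the log2 fold change of Il34 was -1.08 with an edgeR adjusted p of 0.0118. The list of ligands and related receptors had 5 tested genes of 7, with 1 above 0, 4 below and a median of -0.19. Of 12 transcription factors of macrophages, 5 were above 0 and 7 below, with a median of -0.10. Spi1, which encodes PU.1, was at 27.8 ± 3.57 CPM in WT and 27.3 ± 2.72 CPM in SAKI. Maf, a factor of resident macrophages that is also expressed by T cells, was at 85.0 ± 13.7 CPM in WT and 129 ± 11.8 CPM in SAKI (edgeR adjusted p 0.170), and Nr1h3, the liver X receptor alpha, at 77.3 ± 2.77 and 55.8 ± 4.97 CPM (0.163). Cebpa, which adipocytes also express, was at 454 ± 58.6 and 356 ± 27.2 CPM (0.251).

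Genes of lipid-associated macrophages had a median fold change near 0. Of 12, 5 were above 0 and 7 below with a median of -0.08, and Trem2, the lipid receptor that marks these cells, was at 3.64 ± 0.51 CPM in WT and 4.07 ± 2.17 CPM in SAKI (SD, n = 3). Spp1 was at 3.48 ± 0.28 and 6.07 ± 1.88 CPM (edgeR adjusted p 0.211), with all SAKI libraries above all WT libraries. Lpl and Cd36, also in the list, were at 5415 and 2493 CPM in WT and 5025 and 2420 CPM in SAKI. Spp1, Lpl and Cd36 were picked after their values were seen, and the cells that gave these RNAs were not tested. Lipa, the lysosomal acid lipase, was at 79.1 ± 4.41 and 101 ± 6.83 CPM (edgeR adjusted p 0.192). Plin2 and Cd63, which other cells of the depot also express, were at 363 ± 121 and 221 ± 26.5 CPM (0.211) and at 156 ± 21.7 and 110 ± 4.43 CPM (0.173). In the 7 macrophage lists together, 84 of 90 genes were tested, 51 had a log2 fold change above 0 and 33 below, and the median was 0.24. None passed the adjusted edgeR test, where the smallest adjusted p was 0.148, while 16 were higher and 9 lower at an unadjusted p under 0.05, and 25 were higher and 10 lower without WT 2.

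Of 13362 genes compared, those closest to the members in profile over the 6 libraries were C1qtnf6, Fcrls, Lyve1, Clec4a3 and Antxr1. Likeness was the root mean square distance of log2 CPM, centred on each gene's mean, from the centred mean of the members. It was 0.08 for C1qtnf6, a secreted protein with a C1q domain, 0.10 for Fcrls, an Fc receptor-like protein of resident macrophages, 0.11 for Lyve1 and Clec4a3, a lectin receptor of myeloid cells, and 0.13 for Antxr1, a collagen-binding receptor of fibroblasts. Among the members themselves it ran from 0.11 for Adgre1 to 0.47 for Retnla, Cd163 and Mrc1.

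Markers of other cells in the depot were followed library by library. Fibroblast and progenitor genes had a mean of 7.50, 8.38 and 7.24 log2 CPM in WT and 8.25, 8.19 and 8.27 in SAKI libraries, the same order of WT libraries as the members, and WT 2 was at least 2-fold above both other WT libraries in 5 of these 10. Monocyte genes, at 5.09, 5.45 and 4.86 log2 CPM in WT and 5.60, 5.61 and 5.54 in SAKI libraries, had that order as a mean. WT 2 was above both other WT libraries in only 5 of these 10. Fn1, at 221, 1213 and 163 CPM in WT, had the order, and Ly6c2, at 23.7, 13.7 and 10.2 CPM, did not (both chosen after their values were seen). B cell genes had the reverse place for WT 2, at 6.27, 5.47 and 6.04 log2 CPM in WT and 6.11, 6.32 and 6.28 in SAKI libraries, as had T and NK cell genes, at 4.42, 4.01 and 4.14 in WT and 4.75, 4.68 and 4.93 in SAKI libraries. Neutrophils also express Lyz2, and neutrophil and mast cell genes were at 0.83, 2.11 and 1.71 log2 CPM in WT and 2.86, 2.76 and 2.75 in SAKI libraries. The part of these cells in the members' values was not tested.

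Dendritic cells, which can express Clec10a, Csf1r and Mrc1, had a list mean of 3.76, 3.50 and 3.50 log2 CPM in WT and 3.99, 4.10 and 4.25 in SAKI libraries, without the high place of WT 2. In that list Clec9a had the smallest p, at 3.15 ± 0.83 CPM in WT and 13.8 ± 0.11 CPM in SAKI (SD, n = 3, edgeR adjusted p 0.0569). Mature adipocyte genes were at 9.91, 10.3 and 10.3 log2 CPM in WT and 9.88, 9.80 and 9.79 in SAKI libraries. Endothelial genes were at 6.98, 6.97 and 7.01 log2 CPM in WT and 6.83, 6.71 and 6.75 in SAKI libraries.

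**Figure D4:**
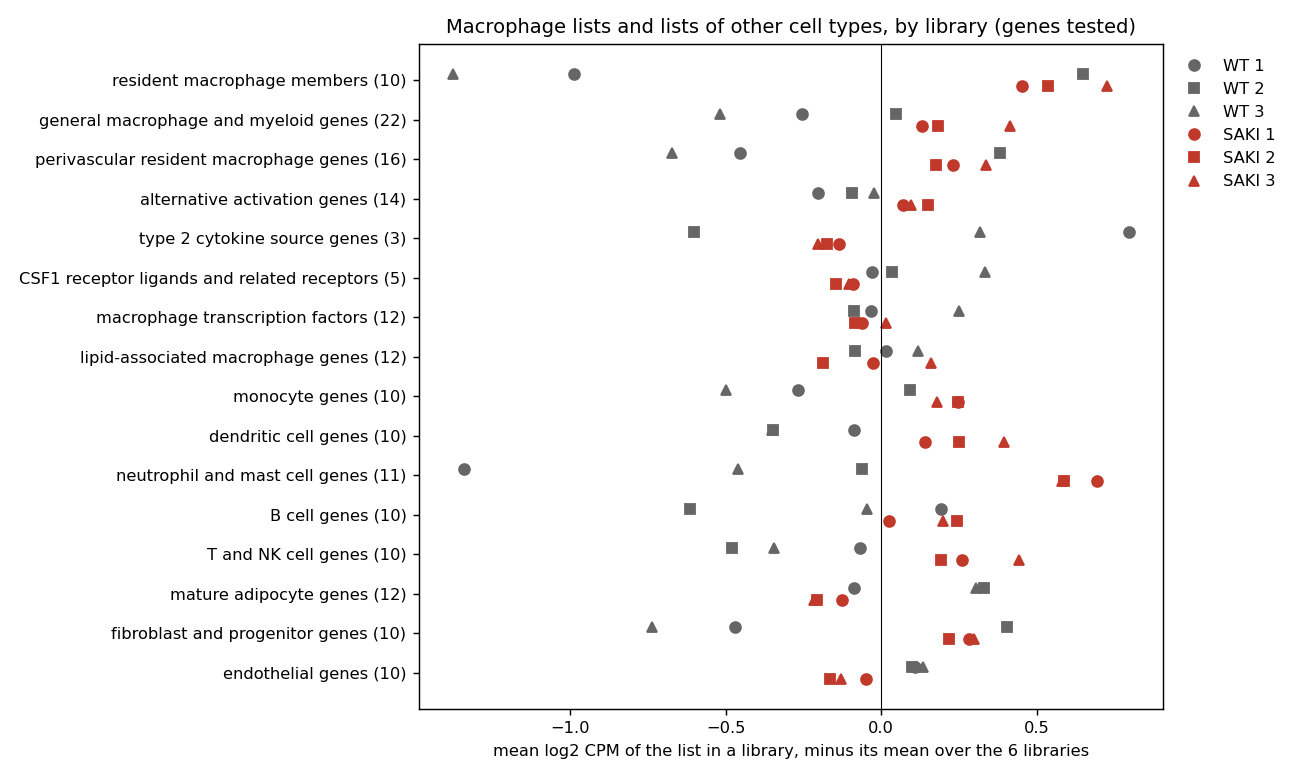
Mean log2 CPM of each gene list in a library minus its mean over the 6 libraries (x axis), for WT libraries (grey, upper row of each list) and SAKI libraries (red, lower row), with the number of genes tested in brackets and the shape giving the mouse number. WT 2 lies with or near the SAKI libraries for the members, the general macrophage, the perivascular, the monocyte and the fibroblast genes. It is the lowest library for B cell, T and NK cell and type 2 cytokine source genes, and narrowly for macrophage transcription factors.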

How the data were processed

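The authors deposited raw counts per gene for each of the 6 libraries and FPKM values for all libraries in 1 table. Their processing notes list StringTie 1.3.0, HISAT2 2.0.4 and Bowtie2 2.2.6 with the build GRCm38, and the sources used here do not give the counting tool, the annotation or the strand. Counts were tested under R 4.3.3 with edgeR 4.0.16 (filterByExpr, minimum count 10 and minimum total 15, TMM factors, quasi-likelihood test, genotype only, all 6 libraries) and adjusted by Benjamini-Hochberg over 15400 genes, with a threshold of 0.05. CPM are TMM-normalized. FPKM served for levels between genes and for limma 3.58.1 on log2(FPKM + 1) and log2(FPKM + 0.1). Alternatives were DESeq2 1.42.0, limma-voom, other scalings and filters, covariates, a replicate block and each library left out in turn. Those on overlap and on values relative to general macrophage genes were chosen after seeing the data.

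Named were the 10 members, genes from the 3 of smallest p in a list, and the 5 genes of nearest profile with a mean of at least 1 CPM (predicted genes left out). Genes outside this rule are the listed relatives and neighbours of members, the well-known markers and ligands Adipoq, Csf1, Il4, Il13, Spi1 and Trem2, and those said to be chosen after their values were seen. Members and the 16 lists (183 symbols, all found) were chosen with earlier results of these data known. P-values set the difference between the groups against the spread between these libraries. Member counts of 195 to 22243 per library keep counting error small beside that spread.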

Additional observations from a re-analysis of the deposited data

How the results depend on the processing

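The call of the members rested on WT 2. With each library left out in turn, 0 to 10 members passed, and the 10 came without WT 2. Their median log2 fold change then ran from 0.49 (without WT 3) to 1.58, the macrophage list genes called from 0 to 35, and the members without overlap between groups from 3 to 10. The 10 without overlap also came without WT 2, and groups of fewer libraries separate more readily. DESeq2 called 1 member and 9 macrophage list genes, and gave no adjusted p for Retnla. The B cell covariate, whose mean was lowest in WT 2, gave 6 members, a median of 1.63 and 13 list genes. It is not a check separate from leaving out WT 2. The general macrophage covariate gave 0 members and a median of -0.36, with Adgre1 at -0.13, Csf1r at -0.058, Mrc1 at -0.30, Cd163 at -0.12, Folr2 at -0.69, Retnla at -1.01, Clec10a at -0.67, Cbr2 at -0.49 and F13a1 at -0.42. Mrc1 relative to general macrophage genes ran from -0.10 to 0.14 with a library left out, and was -0.01 without WT 1. The cause of these changes was not tested. The mean of the general macrophage list did not overlap between the groups, so the fit with it cannot tell the list from the genotype. Of 170 member fold changes under 17 alternatives, 144 kept direction and side of the threshold, 17 newly passed and 9 turned. Members without overlap numbered 2 under RLE or upper-quartile scaling and 4 by FPKM, against 3. The share of all genes higher in SAKI without overlap, 13.0%, was taken only for the main setting with all 6 libraries.

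Over all genes edgeR called 5, against 2598 without WT 2, 724 with DESeq2, 939 with the B cell covariate, 1 with the macrophage covariate, 9 with limma on log2(FPKM + 1), 8 without a filter, 1 to 4 with any other library left out and 1 with a replicate block. The replicate number as a block gave 0 members and a median of 1.07. Deviations of same-numbered libraries correlated at 0.04, 0.04 and 0.09, too little to show pairing, and libraries did not all correlate best with their own number. With 3 libraries a group and a common biological coefficient of variation of 23.3% over the genes tested, changes of the size of Mrc1 could be missed. Some members spread far more in WT, and larger changes did not pass either. Cd163 at 2.65-fold had an edgeR adjusted p of 0.322, with 127 ± 136 CPM in WT (SD), and F13a1 at 2.10-fold had 0.428.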
